A study of Mus musculus with 10 samples.

Results

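The 8 mouse genes Tmprss9, Ces1d, Scin, Bcam, Cabp7, Cpz, C1qtnf1 and Acsl6 were followed in tissue from the lateral wall of the cochlea. They are 8 of the 18725 genes in the deposited expression table. They were picked from this same contrast for a large decrease with little spread in hypothyroid libraries, and for a role in the ear that is less well described than that of other genes with such decreases. Their own difference between the groups is therefore described below and not tested. No numerical limit was part of the choice, so there is no edge with genes just inside or outside it.

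The study sequenced RNA of the cochlear outer sulcus, an epithelial strip beside the hair cell region, dissected with the spiral ligament under it, to ask how thyroid hormone acts on its development. All mice were C57BL/6J at postnatal day 10. In the hypothyroid group (5 libraries) the mothers drank water with methimazole at 0.05%, sodium perchlorate, as its monohydrate, at 1.0% and sucrose at 5.0%, from embryonic day 17 and through lactation until postnatal day 10. In the euthyroid group (5 libraries) the mothers drank vehicle over the same time. Perchlorate keeps iodide out of the thyroid and methimazole stops the gland from building hormone on it, so the model lowers hormone in mother and young alike and is not limited to the ear.

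Thyroid hormone enters the nucleus and binds receptors that sit on DNA at pairs of a short half-site, and target genes are switched on or held off depending on the hormone. In the cochlea the hormone is known to be needed for the remodelling of the sulcus epithelium and for the onset of hearing. The 8 genes encode proteins of different kinds. Tmprss9 is a protease anchored in the cell membrane and Cpz is a secreted carboxypeptidase that can bind Wnt proteins. Bcam is a laminin receptor of the immunoglobulin superfamily, and C1qtnf1 is a secreted relative of the fat hormone adiponectin. Scin, which severs actin filaments, and Cabp7, a Golgi protein, both bind calcium. Ces1d hydrolyses esters such as stored fat, and Acsl6 activates long-chain fatty acids by joining them to coenzyme A.

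The start regions of 4 of the genes are shown because they differ in the letters that bear on a hormone contrast and on GC content. They are RefSeq windows of build GRCm38.p6, from 250 bases before to 50 bases after an annotated start, read along the gene. Tmprss9, Scin and Cabp7 are the 3 genes with the largest differences below, and the Acsl6 window is the only member window with a thyroid receptor half-site. Capitals mark AGGTCA, the half-site, read as TGACCT when it lies on the other strand, and GGGCGG, the letters of a GC box, read as CCGCCC on the other strand.
Tmprss9 internal start: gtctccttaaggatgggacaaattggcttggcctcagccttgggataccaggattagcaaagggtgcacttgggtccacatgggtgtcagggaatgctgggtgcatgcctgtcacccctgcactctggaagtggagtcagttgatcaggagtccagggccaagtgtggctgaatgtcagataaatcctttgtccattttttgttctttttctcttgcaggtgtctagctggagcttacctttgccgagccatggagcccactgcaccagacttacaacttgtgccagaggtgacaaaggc
Scin promoter: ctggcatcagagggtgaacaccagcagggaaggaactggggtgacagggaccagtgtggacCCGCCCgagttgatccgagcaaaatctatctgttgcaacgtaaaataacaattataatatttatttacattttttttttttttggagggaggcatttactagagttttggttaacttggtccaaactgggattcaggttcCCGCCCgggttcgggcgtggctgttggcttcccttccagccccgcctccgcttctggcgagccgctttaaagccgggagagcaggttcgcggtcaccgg
Cabp7 promoter: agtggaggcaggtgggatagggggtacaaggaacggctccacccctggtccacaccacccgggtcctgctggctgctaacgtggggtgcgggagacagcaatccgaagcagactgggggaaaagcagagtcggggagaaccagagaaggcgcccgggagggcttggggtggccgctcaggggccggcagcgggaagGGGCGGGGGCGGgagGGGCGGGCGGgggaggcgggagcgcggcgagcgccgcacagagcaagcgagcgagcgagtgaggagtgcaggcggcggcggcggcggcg
Acsl6 promoter: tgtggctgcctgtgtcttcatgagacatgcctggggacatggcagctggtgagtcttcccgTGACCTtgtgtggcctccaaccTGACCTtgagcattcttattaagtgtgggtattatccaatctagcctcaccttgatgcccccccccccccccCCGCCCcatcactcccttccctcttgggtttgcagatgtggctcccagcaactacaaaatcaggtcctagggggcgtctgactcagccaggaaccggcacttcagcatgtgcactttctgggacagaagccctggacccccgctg
The windows lie at chr10:80879566-80879865 (Tmprss9, + strand), chr12:40134179-40134478 (Scin, − strand), chr11:4747130-4747429 (Cabp7, − strand) and chr11:54303574-54303873 (Acsl6, + strand). The start behind the Tmprss9 window lies well inside the GENCODE M21 span of the gene, downstream of the first start annotated there, so its letters describe an internal start. The Scin window meets the GENCODE start, and the start behind the Cabp7 window lies outside the GENCODE span.

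Of the 8 genes, 6 had such windows, 8 windows in all, since Acsl6 had 3. Bcam and Cpz are the others, and Ces1d and C1qtnf1 had none. Both strands were searched. AGGTCA occurred in the printed Acsl6 window alone, at 2 places on the − strand whose first printed bases lie 189 and 167 bases before the start. Among all 32851 RefSeq windows of this length, 16.3% held AGGTCA. The direct repeat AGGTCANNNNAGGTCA, a classical thyroid receptor element, was in none of the 8 windows and in 0.0152% of all. GGGCGG was in the windows of Scin, Bcam, Cpz, Cabp7 and in all 3 of Acsl6, and it was not in the internal window of Tmprss9. The background share for GGGCGG was 35.7%. Cabp7 had 4 matches within its last 54 bases before the start, some of which overlap. TATAAA, the letters of a TATA box, was in no member window and in 13.6% of all, and CACGTG, an E-box, was in none and in 7.15% of all. The GC content of the windows ran from 52% in Tmprss9 and Scin to 76% in an Acsl6 window, against a median of 52.7% over all windows. The ratio of observed to expected CG pairs was 0.0498 in Tmprss9 and 0.85 in Cabp7, with a median of 0.384 over all. None of these letters was thus shared by all 6 genes with windows, and GGGCGG was missing only from the internal window of Tmprss9.

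Library totals were 19781921 to 20063961 estimated counts in the euthyroid and 19298145 to 19407592 in the hypothyroid group. The 8 genes together took 0.225% ± 0.0129 of all counts in euthyroid libraries (SD, n = 5) and 0.0243% ± 0.00024 in hypothyroid libraries (SD, n = 5). The inner ear gene Otor had 5479 ± 258 CPM in euthyroid and 6060 ± 797 CPM in hypothyroid libraries (SD, n = 5 each). Otos and Coch, like Otor listed below as fibrocyte markers, had 3906 ± 766 and 2868 ± 660 CPM in euthyroid libraries (SD, n = 5 each). In hypothyroid libraries they had 56.05 ± 20.7 and 261 ± 37.6 CPM (SD, n = 5 each). The tissue was taken as inner ear from most labels and these levels, and was not tested further. CPM are a library's counts scaled to a common total with the TMM method. One line of the labels speaks of cartilage from the head of the femur at day 22, while all other labels give the cochlea at day 10. Of the 14862 genes with enough counts to test, 5603 (37.7%) were higher and 5064 (34.1%) lower in the hypothyroid group by edgeR's quasi-likelihood test at an adjusted p under 0.05, with a median log2 fold change of 0.04. Scaling by library size alone moved that median to 0.30 and the counts to 8650 higher and 2928 lower, so a value near 0 has no fixed direction here.

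In all 8 genes, the lowest euthyroid library lay above the highest hypothyroid library in CPM. Such a gap, lower in hypothyroid, was present in 28.5% of all genes tested, and the choice of the members used this contrast, so nothing is read from the count. All 8 were also at least 5-fold lower in the ratio of mean CPM, as were 1.85% of all genes tested. Euthyroid means were 7.15 times the hypothyroid mean for Bcam, 7.90 times for Cpz, 10.6 times for C1qtnf1 and 15.2 times for Ces1d. The ratios were 18.0 for Acsl6, 74.1 for Cabp7, 75.0 for Scin and 658 for Tmprss9. In bulk tissue, fewer cells of a type and less RNA per cell cannot be told apart.

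**Figure D1:**
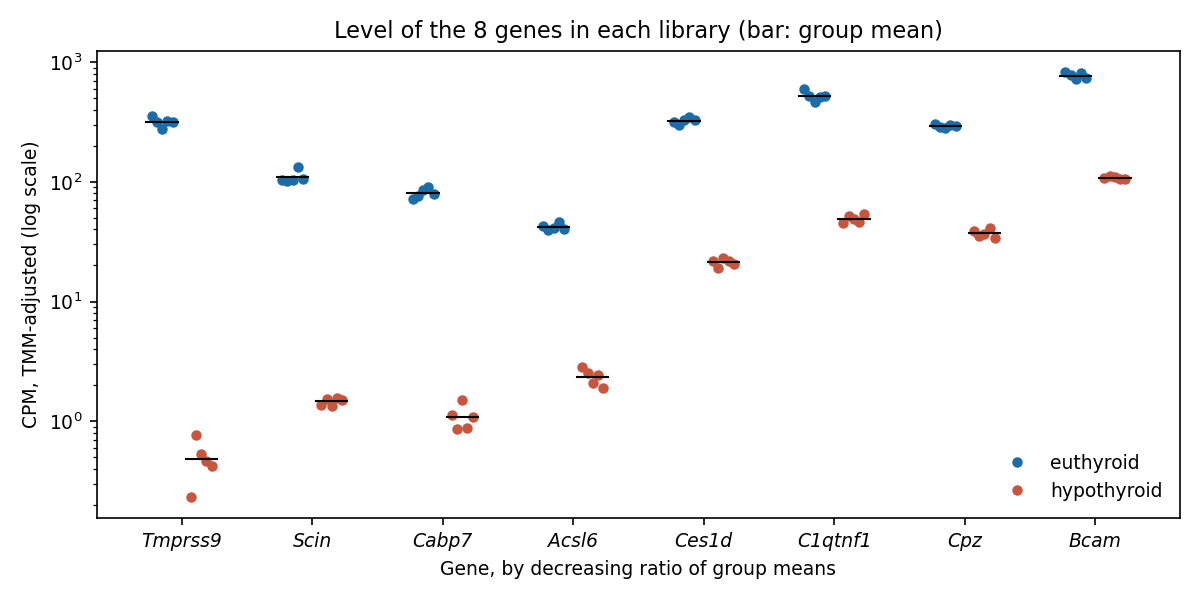
CPM of the 8 genes on a log axis, with 1 point per library (5 euthyroid and 5 hypothyroid) and a bar at each group mean. In each gene every euthyroid point lies above every hypothyroid point, and the gap is widest for Tmprss9, with means of 317 and 0.482 CPM.

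Tmprss9 encodes polyserase-1, a type II transmembrane serine protease with several protease domains in 1 chain. The gene lies on chromosome 10, bases 80871848 to 80899492 of GRCm38, + strand, and its longest GENCODE M21 transcript has 19 exons. Tmprss9 had 352, 316, 277, 324 and 317 CPM in euthyroid replicates 1 to 5, and 0.234, 0.761, 0.530, 0.462 and 0.424 CPM in hypothyroid replicates 1 to 5. Euthyroid replicate 1 was the highest and replicate 3 the lowest of its group, and no hypothyroid library reached 1 CPM. The means were 317 ± 26.8 and 0.482 ± 0.191 CPM (SD, n = 5 each), and the lowest euthyroid library had 364 times the CPM of the highest hypothyroid one. The hypothyroid level rests on 51 counts over 5 libraries, against 28757 in the euthyroid group. Counting error alone gives a coefficient of variation of 31.4% at that depth, and 39.5% was seen. Timm13 overlaps its last exon on the opposite strand, and no stretch of 50 bases, the length of a read, of the 3532 in the transcript occurs in another gene's transcripts.

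In the euthyroid libraries Tmprss9 was the most abundant of the 14 proteases of its family in the table. It made up 59.7% ± 1.85 of the family's summed TPM (a measure that adjusts for transcript length and library total), and 0.341% ± 0.107 in the hypothyroid libraries (SD, n = 5 each), where it had rank 9. The summed TPM of the other 13 was 136 ± 11.1 and 91.5 ± 11 (SD, n = 5 each). Of 9 relatives tested, 1 rose, 5 fell and 3 did not pass, and the median of their log2 changes was -1.10. Corin, the protease that activates natriuretic peptides, fell from 16.3 ± 5.53 to 0.151 ± 0.102 CPM (SD, n = 5 each), with -6.69 as the edgeR log2 fold change (SE 0.36, adjusted p = 3.34e-09). Tmprss3, in which mutations cause deafness, fell from 67.2 ± 6.39 to 12.9 ± 2.61 CPM (SD, n = 5 in each group; edgeR log2 fold change -2.38, adjusted p = 1.38e-09), and was chosen for mention after its values were seen. St14, the epithelial protease matriptase, rose by 0.27 on the log2 scale (SE 0.087, edgeR adjusted p = 0.0122), though its groups overlapped.

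Serine proteases of this kind are held in check by Kunitz inhibitors, and urokinase is among the substrates described for Tmprss9. Of 7 genes for these inhibitors and the urokinase system, 3 rose, 2 fell and 2 did not pass, and the median change was -0.00 in log2. With library sizes alone 4 rose and 1 fell, and the median was 0.26. Plau, urokinase itself, rose from 2.18 ± 0.515 to 4.86 ± 1.53 CPM (SD, n = 5 in each group; edgeR log2 fold change 1.15, adjusted p = 0.000319). Spint2, a Kunitz inhibitor, fell by 0.40 on the log2 scale (edgeR adjusted p = 1.13e-05). Plau was thus higher in the libraries in which Tmprss9 was lower.

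Cpz encodes a secreted metallocarboxypeptidase that carries the cysteine-rich domain of Frizzled receptors and is held in the extracellular matrix. It lies on chromosome 5, bases 35502218 to 35525698, − strand, with 11 exons. Cpz had 305, 285, 280, 301 and 292 CPM in euthyroid replicates 1 to 5, and 39.2, 35.2, 36.5, 40.8 and 33.7 CPM in hypothyroid replicates 1 to 5. Both groups were narrow, and the euthyroid coefficient of variation of 3.56% was the smallest of the 8 genes. The means were 293 ± 10.4 and 37.1 ± 2.91 CPM (SD, n = 5 each). No other gene shares a 50-base stretch with its transcript.

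In TPM, Cpz had rank 3 of 17 carboxypeptidases in the euthyroid libraries, with 10.5% ± 0.633 of the family's sum, and rank 8 in the hypothyroid ones, with 2.2% ± 0.23 (SD, n = 5 each). Of 8 relatives tested, 1 rose, 6 fell and 1 did not pass, with a median of -0.48. Cpe, which trims prohormones and was the most abundant of the family at 1150 TPM, fell from 1085 ± 98.7 to 275 ± 24.8 CPM (SD, n = 5 in each group; edgeR log2 fold change -1.98, adjusted p = 6.27e-12). Cpxm2, a relative without known peptidase activity, rose from 339 ± 20.6 to 937 ± 45.7 CPM (SD, n = 5 in each group; edgeR log2 fold change 1.47, SE 0.0533, adjusted p = 4.33e-12). A gene of the same family, at a like level in the euthyroid libraries, thus moved against Cpz.

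The other genes with a Frizzled-type domain, listed with Wnt4 as the only Wnt, split in direction. Of 19 tested, 9 rose, 7 fell and 3 did not pass, with a median of -0.02. Wnt4 fell from 28.0 ± 3.495 to 3.44 ± 0.647 CPM (SD, n = 5 in each group). Its edgeR log2 fold change was -3.02 (adjusted p = 2.14e-11), and it is named after its values were seen. Sfrp4, a secreted Wnt antagonist, fell from 64.3 ± 5.93 to 3.10 ± 0.639 CPM (SD, n = 5 in each group; edgeR log2 fold change -4.37, adjusted p = 2.22e-13). Sfrp2, of the same family of antagonists, rose from 7.70 ± 1.06 to 95.3 ± 8.27 CPM (SD, n = 5 in each group; edgeR log2 fold change 3.63, adjusted p = 1.32e-13). The euthyroid libraries thus had more Sfrp4 counts than Sfrp2 counts, and the hypothyroid libraries the reverse.

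Bcam encodes the Lutheran glycoprotein, a cell surface receptor for laminins with the alpha5 chain. Its gene is on chromosome 7, bases 19756131 to 19771016, − strand, with 15 exons. Bcam had 829, 777, 722, 807 and 737 CPM in euthyroid replicates 1 to 5, and 107, 113, 110, 106 and 106 CPM in hypothyroid replicates 1 to 5. The hypothyroid libraries had a coefficient of variation of 2.79%, where counting error alone gives 2.09%, and the highest was 1.07 times the lowest. The means were 775 ± 45.1 and 108 ± 3.02 CPM (SD, n = 5 each). Bcam had the highest level per length of the 8 genes in both groups, 740 ± 52.4 and 121 ± 2.23 TPM (SD, n = 5 each). Of all genes in the table it stood at the 99.1 percentile of TPM in the euthyroid and still at the 92.1 percentile in the hypothyroid libraries.

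Among 15 immunoglobulin adhesion molecules, Bcam had rank 1 in euthyroid libraries with 42.7% ± 2.43 of the summed TPM, and had rank 5 in hypothyroid libraries with 9.24% ± 0.33 (SD, n = 5 each). The summed TPM of the other 14 was 993 ± 34.4 and 1190 ± 45.8 (SD, n = 5 each). Of these 14, 7 rose, 4 fell and 3 did not pass, with a median of 0.35. Cadm3, a neuronal adhesion molecule, rose from 0.486 ± 0.133 to 2.42 ± 0.777 CPM (SD, n = 5 in each group; edgeR log2 fold change 2.30, adjusted p = 1.79e-06). F11r, a tight junction protein, fell from 100.1 ± 4.20 to 63.2 ± 3.39 CPM (SD, n = 5 in each group; edgeR log2 fold change -0.66, adjusted p = 9.26e-09). The median of this family was above that of all genes, while Bcam was among the lower genes.

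Of 10 genes for the laminins that Bcam binds and for their other receptors, 2 rose, 7 fell and 1 did not pass, with a median of -0.26. Scaled by library size alone the counts were 3 rising and 4 falling, and the median moved to 0.01. Lama5, the alpha5 chain itself, fell from 166 ± 9.03 to 119 ± 8.37 CPM (SD, n = 5 in each group; edgeR log2 fold change -0.48, adjusted p = 1.34e-06). Lamc1, the gamma1 chain, fell from 1371 ± 106 to 516 ± 37.4 CPM (SD, n = 5 in each group; edgeR log2 fold change -1.41, adjusted p = 5.2e-11). Itgb4, the integrin beta4 receptor chain, rose from 7.87 ± 0.607 to 24.0 ± 3.61 CPM (SD, n = 5 in each group; edgeR log2 fold change 1.61, adjusted p = 1.92e-09). The ligand chain was thus 1.40-fold lower where the receptor mean was 7.15-fold lower.

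C1qtnf1 encodes a secreted glycoprotein with a globular C1q domain like that of adiponectin. The gene is on chromosome 11, bases 118428203 to 118449963, + strand, with 4 exons. C1qtnf1 had 600, 518, 465, 509 and 520 CPM in euthyroid replicates 1 to 5, and 45.6, 52.0, 48.8, 46.2 and 54.3 CPM in hypothyroid replicates 1 to 5. Euthyroid replicate 1 stood highest and replicate 3 lowest, and the hypothyroid libraries were close together. The means were 523 ± 48.8 and 49.4 ± 3.77 CPM (SD, n = 5 each). Of the 2483 stretches of 50 bases in its transcript, 594 (23.9%) also occur in the antisense gene Gm11747 on the opposite strand. Whether the libraries kept strand was not given in the sources used here, so reads of the overlap cannot be assigned to either gene from the values alone.

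C1qtnf1 had rank 2 of 26 C1q and TNF-related genes by TPM in euthyroid libraries, with 9.45% ± 1.08 of the sum, and rank 9 in hypothyroid libraries, with 3.13% ± 0.153 (SD, n = 5 each). Of 20 relatives tested, 9 rose, 8 fell and 3 did not pass, with a median of 0.13. Emilin2, a matrix glycoprotein with a C1q domain and the most abundant of these genes at 1860 TPM, fell from 3232 ± 470 to 68.9 ± 6.83 CPM (SD, n = 5 in each group; edgeR log2 fold change -5.55, adjusted p = 1.32e-13). C1qtnf7, another secreted adiponectin relative, rose from 1.21 ± 0.238 to 5.54 ± 2.11 CPM (SD, n = 5 in each group; edgeR log2 fold change 2.195, adjusted p = 2.5e-06). The family moved in both directions in like numbers.

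Adiponectin and its relatives signal through receptors linked to the energy sensor AMPK. Of 6 such genes, 1 rose, 4 fell and 1 did not pass, with a median of -0.66. Prkaa2, the AMPK alpha2 catalytic subunit, fell from 151 ± 16.4 to 36.7 ± 6.59 CPM (SD, n = 5 in each group; edgeR log2 fold change -2.04, adjusted p = 1.17e-08). Appl1, an adaptor of the receptors, was 0.12 higher on the log2 scale with an edgeR adjusted p = 0.0445. That call was lost without euthyroid replicate 1, 3, 4 or 5 or hypothyroid replicate 1 or 5, with adjusted p up to 0.125. It was also lost with DESeq2, with RLE factors, without the count filter and, at 0.0819, with the replicate number as a block.

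Scin encodes scinderin (adseverin), which severs and caps actin filaments when calcium rises. The locus is on chromosome 12, bases 40059769 to 40134228, − strand, with 16 exons. Scin had 104, 101, 103, 134 and 106 CPM in euthyroid replicates 1 to 5, and 1.36, 1.52, 1.35, 1.57 and 1.51 CPM in hypothyroid replicates 1 to 5. Euthyroid replicate 4 stood above the other 4, which lay within 101 to 106 CPM, and the hypothyroid libraries were nearly equal. The means were 109.6 ± 14.0 and 1.46 ± 0.101 CPM (SD, n = 5 each). The hypothyroid level rests on 155 counts in all, and its spread of 6.92% was under the 17.9% that counting error alone would give. Other genes share 1.36% of its 50-base stretches.

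Of the 8 genes of the gelsolin and villin family, Scin had rank 2 by TPM in euthyroid libraries, with 21.5% ± 1.78 of the sum, and rank 7 in hypothyroid libraries, with 0.276% ± 0.036 (SD, n = 5 each). The other 7 summed to 305 ± 14.1 TPM in euthyroid and 479 ± 79.0 TPM in hypothyroid libraries (SD, n = 5 each). Of these 7, 4 rose, 1 fell and 2 did not pass, with a median of 0.51. Gsn, gelsolin, the most abundant at 162 TPM, rose from 187 ± 10.1 to 266 ± 66.5 CPM (SD, n = 5 in each group; edgeR log2 fold change 0.51, SE 0.151, adjusted p = 0.0118). Avil, advillin, rose from 1.13 ± 0.20 to 2.80 ± 0.691 CPM (SD, n = 5 in each group; edgeR log2 fold change 1.31, adjusted p = 5.11e-05). Scin was thus low in the libraries in which most of its tested relatives were higher.

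Of 15 other genes that sever, cap or hold back actin, 4 rose, 9 fell and 2 did not pass, with a median of -0.15. With library sizes alone the same genes gave 7 rising and 2 falling and a median of 0.12, so these counts have no fixed direction. Twf1, twinfilin, fell from 239 ± 17.4 to 109.7 ± 1.55 CPM (SD, n = 5 in each group; edgeR log2 fold change -1.12, adjusted p = 3.31e-11). Tmsb10, a thymosin that binds actin monomers, rose from 60.0 ± 3.14 to 149 ± 16.8 CPM (SD, n = 5 in each group; edgeR log2 fold change 1.32, adjusted p = 3.9e-10).

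Cabp7 encodes calneuron-2, an EF-hand protein of the Golgi that restrains the lipid kinase Pi4kb when calcium is low. It lies on chromosome 11, bases 4736892 to 4746778, − strand, with 5 exons. Cabp7 had 71.6, 75.6, 85.3, 90.1 and 79.9 CPM in euthyroid replicates 1 to 5, and 1.12, 0.856, 1.49, 0.877 and 1.08 CPM in hypothyroid replicates 1 to 5. Euthyroid replicate 1 was lowest and replicate 4 highest, the reverse of the order that Tmprss9 and C1qtnf1 gave for replicate 1. The means were 80.5 ± 7.39 and 1.09 ± 0.257 CPM (SD, n = 5 each). The hypothyroid spread of 23.7%, on 115 counts, was close to the 20.8% of counting error. Of its 2579 stretches of 50 bases, 292 (11.3%) also occur in Zmat5 on the opposite strand, whose own change is given below.

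Cabp7 made up 3.36% ± 0.328 of the summed TPM of 15 calcium-binding relatives in euthyroid libraries and 0.0617% ± 0.0124 in hypothyroid libraries (SD, n = 5 each), with ranks of 5 and 11. Of 10 relatives tested, 2 rose, 7 fell and 1 did not pass, with a median of -0.36. Caln1, calneuron-1, the closest relative in the list, rose from 2.25 ± 0.561 to 16.4 ± 1.51 CPM (SD, n = 5 in each group; edgeR log2 fold change 2.86, SE 0.138, adjusted p = 8.51e-11). Vsnl1, a neuronal calcium sensor, fell from 6.81 ± 1.54 to 2.79 ± 0.611 CPM (SD, n = 5 in each group; edgeR log2 fold change -1.29, adjusted p = 1.09e-05). Calm2, calmodulin and the most abundant at 821 TPM, fell by 0.39 on the log2 scale (edgeR adjusted p = 1.2e-06). The calneurons Cabp7 and Caln1 therefore moved in opposite directions.

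Of 9 phosphatidylinositol 4-kinase and Golgi phosphoinositide genes, 1 rose, 7 fell and 1 did not pass, with a median of -0.42, and with library sizes alone 2 rose and 5 fell. Pi4kb, the kinase that Cabp7 restrains, was 55.3 ± 2.27 CPM in euthyroid and 60.5 ± 0.626 CPM in hypothyroid libraries (SD, n = 5 in each group; edgeR log2 fold change 0.13, adjusted p = 0.0144). Without euthyroid replicate 1 or 3 its adjusted p was 0.0574 or 0.0517. Golph3, which binds the lipid product at the Golgi, fell from 298 ± 15.8 to 178 ± 11.6 CPM (SD, n = 5 in each group; edgeR log2 fold change -0.74, adjusted p = 7.04e-09). The kinase differed little beside its regulator.

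Ces1d encodes an esterase of the endoplasmic reticulum that hydrolyses stored triglyceride in fat and liver. It lies on chromosome 8, bases 93166068 to 93197838, − strand, with 14 exons, in a cluster of like genes. Ces1d had 318, 296, 330, 348 and 327 CPM in euthyroid replicates 1 to 5, and 22.0, 19.2, 22.9, 21.9 and 20.5 CPM in hypothyroid replicates 1 to 5. Replicate 2 was the lowest in each group, although the replicate numbers do not pair the libraries. The means were 324 ± 18.9 and 21.3 ± 1.44 CPM (SD, n = 5 each). Of its 50-base stretches 1.28% occur in Ces1b, Ces1g or Ces1f and none in Ces1e. This counts exact matches alone, and reads shared with these copies through mismatches were not examined.

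Ces1d was by far the most abundant of its family, with 96.2% ± 0.192 of the summed TPM of 16 carboxylesterases in euthyroid and still 74.2% ± 1.70 in hypothyroid libraries (SD, n = 5 each). The other 15 together had 14.9 ± 0.762 and 10.1 ± 0.428 TPM (SD, n = 5 each). Only 5 of them had enough counts to test, of which 1 rose, 3 fell and 1 did not pass, with a median of -0.93. Ces1e, the adjacent gene, had 213 counts in the euthyroid group, 2.35 ± 0.425 CPM (SD, n = 5), and 0 in the hypothyroid group. Set against 3 counts over the whole group, Ces1e was at least 83.1-fold lower (edgeR adjusted p = 3.19e-08). Ces2f, an intestinal-type carboxylesterase, rose from 1.41 ± 0.231 to 2.02 ± 0.24 CPM (SD, n = 5 in each group; edgeR log2 fold change 0.51, adjusted p = 0.0138).

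Of 14 genes of neutral lipid hydrolysis and lipid droplets, 0 rose, 10 fell and 4 did not pass by edgeR, with a median of -0.71. With library sizes alone 3 rose and 8 fell, and the median was -0.45. Lpl, lipoprotein lipase, fell from 33.4 ± 3.66 to 5.32 ± 0.637 CPM (SD, n = 5 in each group; edgeR log2 fold change -2.65, SE 0.0978, adjusted p = 5.17e-12). Fat cell markers were scarce in both groups: of 7 in the table only 2 passed the count filter, both of which fell, though the sign of Lipe turned with library sizes alone. Their summed level was 17.7 to 21.2 CPM in euthyroid and 14.4 to 17.0 CPM in hypothyroid libraries, nearly all of it from Lipe, a lipase that other cells make too. Adipoq, which defines fat cells, was at 0.143 CPM in euthyroid libraries and at 0 in hypothyroid ones.

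Acsl6 encodes a long-chain acyl-CoA synthetase that favours docosahexaenoic acid and is best known from brain and retina. It lies on chromosome 11, bases 54303798 to 54364756, + strand, with 21 exons. Acsl6 had 42.8, 39.9, 41.4, 46.6 and 40.0 CPM in euthyroid replicates 1 to 5, and 2.81, 2.52, 2.07, 2.45 and 1.88 CPM in hypothyroid replicates 1 to 5. Euthyroid replicate 4 was the highest and the groups were far apart. The means were 42.1 ± 2.77 and 2.35 ± 0.367 CPM (SD, n = 5 each). The hypothyroid spread of 15.6%, on 249 counts, was near the 14.2% of counting error. Acsl6 had the lowest level per length of the 8 genes in euthyroid libraries, 29.0 ± 2.04 TPM (SD, n = 5).

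Acsl6 was a minor member of its family, with rank 8 of 22 acyl-CoA synthetases by TPM in euthyroid libraries with 3.55% ± 0.144 of the sum, and rank 15 in hypothyroid ones with 0.331% ± 0.0699 (SD, n = 5 each). Of 15 relatives tested, 6 rose, 8 fell and 1 did not pass, with a median of -0.29, and with library sizes alone 7 rose and 7 fell. Acsl3, the most abundant at 372 TPM and known from lipid droplets, fell from 625 ± 35.8 to 153 ± 13.2 CPM (SD, n = 5 in each group; edgeR log2 fold change -2.03, adjusted p = 7.37e-13). Slc27a3, of the fatty acid transport protein family, rose from 7.47 ± 0.752 to 24.9 ± 2.04 CPM (SD, n = 5 in each group; edgeR log2 fold change 1.74, adjusted p = 1.19e-10).

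Of 18 genes listed for docosahexaenoic acid supply or phospholipid remodelling, 6 rose, 9 fell and 3 did not pass. Their median was -0.25, and with library sizes alone 9 rose and 9 fell. Fabp7, a binding protein for this fatty acid, fell from 96.2 ± 8.82 to 9.45 ± 1.43 CPM (SD, n = 5 in each group; edgeR log2 fold change -3.35, SE 0.0965, adjusted p = 1.04e-12). Elovl2, which elongates its precursors, rose from 0.660 ± 0.164 to 7.72 ± 1.09 CPM (SD, n = 5 in each group; edgeR log2 fold change 3.53, SE 0.178, adjusted p = 1.43e-10). The other elongase and desaturase genes of the list that passed all fell, and are given here after their values were seen. The elongases Elovl5 and Elovl4 had log2 fold changes of -1.09 and -1.25 (edgeR adjusted p = 1.85e-11 and 0.000131), and the desaturases Fads1, Fads2 and Fads6 had -0.76, -0.63 and -1.18 (edgeR adjusted p = 7.07e-10, 7.94e-09 and 0.000344). Fads3 had -0.06 and did not pass (edgeR adjusted p = 0.35).

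**Figure D2:**
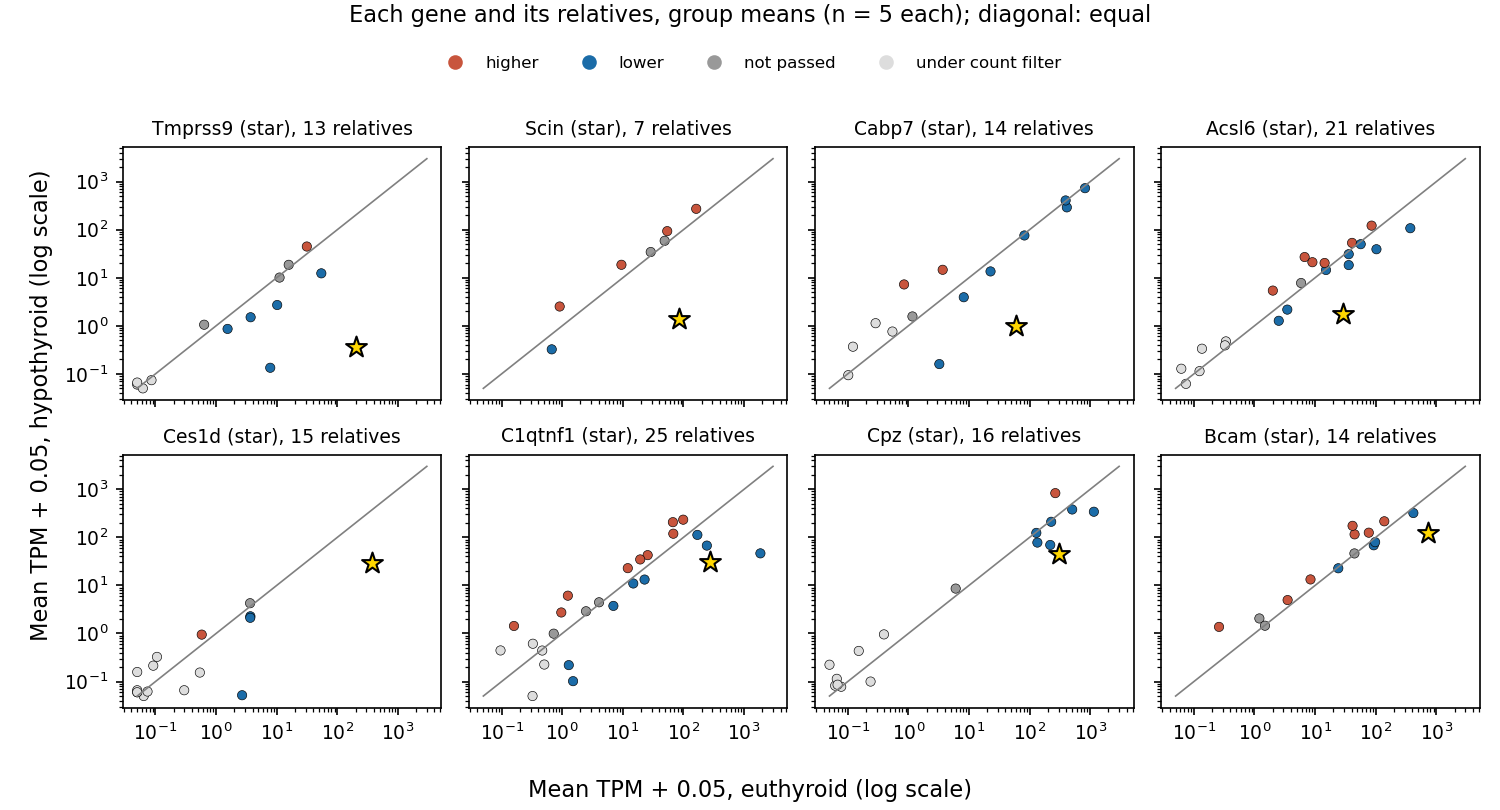
Mean TPM (plus 0.05, log axes) in euthyroid against hypothyroid libraries (n = 5 each) for each of the 8 genes, drawn as a star, and its relatives, coloured by the edgeR call. Each star lies below the line of equal levels, and in most panels relatives lie on both sides of that line.

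Over the 8 families together, 31 of the 88 relatives tested (35.2%) rose and 42 (47.7%) fell, of 135 listed, with a median of -0.18. The corresponding shares over all genes were 37.7% and 34.1%. Of the 98 partner genes tested, of 105 listed, 26 (26.5%) rose and 55 (56.1%) fell, with a median of -0.25. With library sizes alone, 40 relatives rose and 36 fell (median 0.09), and 39 partners rose and 40 fell (median 0.02), beside 8650 and 2928 of all genes. Relative to the median of all genes under that scaling, the lists' medians were -0.21 and -0.28. At least 5-fold lower were 7 of the 88 relatives and 6 of the 98 partners tested, against 275 of the 14862 genes tested (1.85%). Both kinds of list were chosen with earlier results of these data known, so nothing is read from these counts and shares.

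By level per length, the order in euthyroid libraries was Bcam, Ces1d, Cpz, C1qtnf1, Tmprss9, Scin, Cabp7 and Acsl6, with TPM means of 740, 380, 310.5, 272, 202, 83.6, 60.8 and 29.0. Among neighbours in this order, Cpz and C1qtnf1 overlapped between libraries, and the other neighbours did not. In hypothyroid libraries the order was Bcam, Cpz, C1qtnf1, Ces1d, Acsl6, Scin, Cabp7 and Tmprss9, with means of 121, 46.0, 30.2, 29.3, 1.73, 1.31, 0.958 and 0.320 TPM. There C1qtnf1 overlapped Ces1d, Acsl6 overlapped Scin, and Scin overlapped Cabp7. Tmprss9 thus went from place 5 to the last place, at the 95.9 and the 17.7 percentile of all genes. Scin, Cabp7 and Acsl6 went from the 87.8, 82.9 and 68.4 percentiles to the 26.0, 24.1 and 27.9 percentiles.

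**Figure D3:**
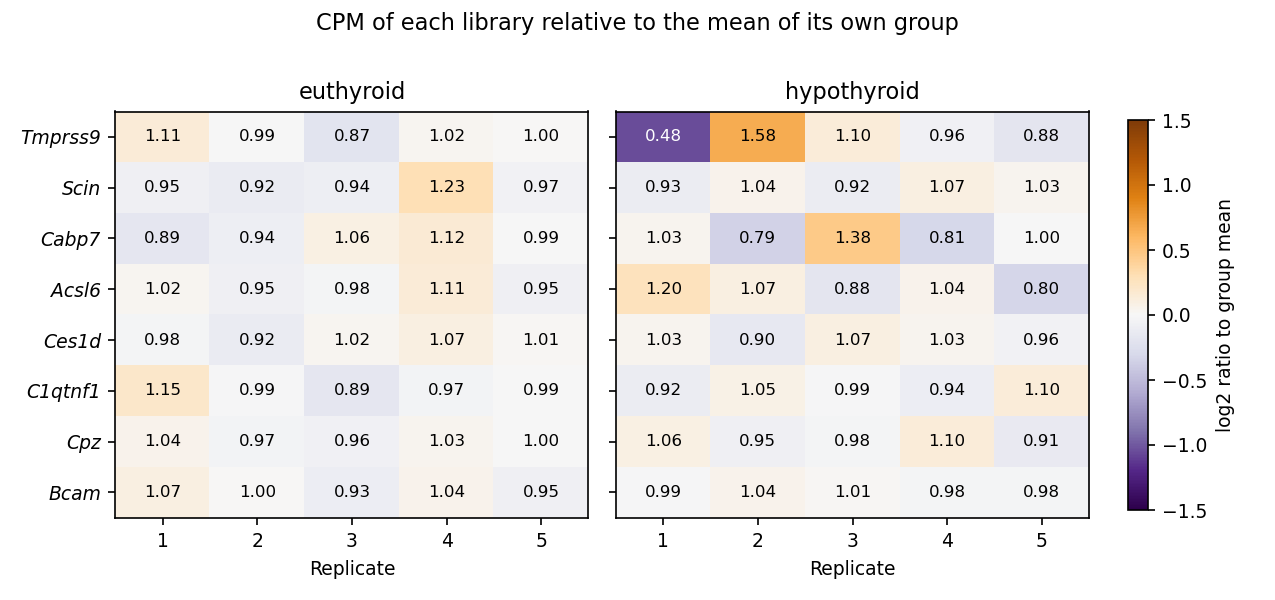
CPM of each gene in each library divided by the mean of its own group (number in the cell), coloured by the log2 of that ratio. Euthyroid replicate 4 is above its group mean in 7 of 8 genes, and the widest hypothyroid ratios are those of Tmprss9, whose counts are few.

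Within the euthyroid group, replicate 4 was above the group mean in 7 of the 8 genes and replicate 1 in 5, while replicates 2, 3 and 5 were above it in 1, 2 and 1. The highest euthyroid library was replicate 1 for 4 genes and replicate 4 for the other 4. In the hypothyroid group the number above the mean was 4, 5, 4, 4 and 2 over replicates 1 to 5. The TMM factor of euthyroid replicate 4, which divides its CPM, was the lowest of the 10 libraries at 0.894, and its part in these ratios was not tested. The pairs of genes with the most alike profiles over the 10 libraries were Bcam with Cpz and Ces1d with Acsl6, with root mean square differences of 0.111 and 0.142 in centred log2 CPM. These differences are set mostly by how far apart the 2 groups lie.

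By the same measure the 3 closest other genes were found for each member among 11676 genes, over 10 libraries. For Tmprss9 they were Col4a3, a basement membrane collagen, at 0.309, Umodl1 at 0.812 and the osteoblast gene Bglap at 0.982. The order of these 3 rests on the added 0.5 CPM, which is about as large as the hypothyroid mean of Tmprss9: by edgeR's log2 fold change Umodl1 (-9.00) was nearer to Tmprss9 (-9.35) than Col4a3 (-7.94) was. For Scin they were Gpr37l1 (0.191), Emilin2 (0.195) and Bglap2 (0.297, which has 0 hypothyroid counts, so that its value rests on the added 0.5 CPM). For Cabp7 they were Emilin2 (0.175), Gpr37l1 (0.188) and Ttbk1 (0.258). For Ces1d they were Syt12 (0.119), the thyroid hormone transporter Slco1c1 (0.141) and Col13a1 (0.152). For Acsl6 they were Hr, a corepressor and well-known thyroid hormone target, at 0.204, Rorb (0.213) and Syt12 (0.217). For C1qtnf1 they were Vipr1 (0.0894), Acox2 (0.103) and Art3 (0.137). Their hypothyroid means were 0.952, 1.11 and 1.36 CPM, against 49.4 CPM for C1qtnf1, so the added 0.5 CPM narrows their differences between groups. By edgeR their log2 fold changes were -3.88, -3.84 and -3.82, against -3.40 for C1qtnf1. For Bcam they were Rasl12 (0.126), Aldh1a1 (0.133) and Fut2 (0.142). For Cpz they were Klhl33 (0.131), Bcl3 (0.158, which lies near Bcam on chromosome 7) and Bmp6 (0.159). Bcl3 too rests on the added 0.5 CPM, with a hypothyroid mean of 0.764 CPM. Its edgeR log2 fold change was -3.75, against -2.98 for Cpz. Gpr37l1 and Emilin2 thus appeared for both Scin and Cabp7, and Syt12 for both Ces1d and Acsl6. The place of Emilin2 rests on the added 0.5 CPM. Its hypothyroid mean was 68.9 CPM, against 1.46 for Scin and 1.09 for Cabp7. By edgeR its log2 fold change was -5.55, against -6.22 for Scin and -6.205 for Cabp7. Ttbk1, at -6.43, was nearer to Cabp7 by that value.

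The genes beside the 8 on the chromosome were compared in the same fit. Of the 16 nearest tested protein-coding genes, 1 on each side, 3 rose (18.8%), 12 fell (75.0%) and 1 did not pass, with a median of -0.60. Over all genes tested, 37.7% rose and 34.1% fell. These shares depend on the scaling: with library sizes alone 2928 of all genes fell, against 5064. Timm13 and Fnip1 then turned in sign, as given below. With 3 genes on each side, an extension chosen after seeing the data, 13 of 48 rose (27.1%) and 30 fell (62.5%), with a median of -0.35. Of the nearest 16, 2 were at least 5-fold lower, Ces1e beside Ces1d and Engase beside C1qtnf1, against 1.85% of all genes tested. Engase, a cytosolic glycosidase whose gene lies 25019 bases from C1qtnf1, fell from 187 ± 40.0 to 12.04 ± 1.04 CPM (SD, n = 5 in each group; edgeR log2 fold change -3.96, SE 0.155, adjusted p = 2.07e-09). Cblc, a ubiquitin ligase beside Bcam, fell from 9.55 ± 1.48 to 2.51 ± 0.395 CPM (SD, n = 5 in each group; edgeR log2 fold change -1.93, adjusted p = 1.11e-08). Ces1e lies 3413 bases from Ces1d and was at least 83.1-fold lower, as given above. Of the wider 48, 3 more were at least 5-fold lower and are named after their values were seen. Bcl3, a regulator of NF-kappaB that lies beyond Cblc from Bcam, fell from 10.4 ± 0.955 to 0.764 ± 0.106 CPM (SD, n = 5 in each group; edgeR log2 fold change -3.75, adjusted p = 4.18e-12), further than Bcam itself. Gm19345, next to Bcl3, had 231 counts in the euthyroid and 0 in the hypothyroid group, at least 90.1-fold lower against 3 counts over the group (edgeR adjusted p = 1.33e-07). Lingo3, 3 genes from Tmprss9, fell from 10.9 ± 1.09 to 1.58 ± 0.506 CPM (SD, n = 5 in each group; edgeR log2 fold change -2.78, adjusted p = 1.01e-09).

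The other nearest neighbours had smaller log2 fold changes than the gene they lie beside. Sppl2b beside Tmprss9, Nectin2 beside Bcam, Ifrd1 beside Scin and Adra2c beside Cpz had log2 fold changes of -0.78, -0.68, -0.72 and -0.67, with edgeR adjusted p of 4.21e-10, 1.01e-08, 9.23e-06 and 2.58e-05. P4ha2 beside Acsl6 had -1.30 (edgeR adjusted p = 0.000187), Cant1 beside C1qtnf1 -0.49 (2.2e-07) and Nf2 beside Cabp7 -0.40 (1.25e-06). Capns2 beside Ces1d and Trmt44 beside Cpz rose by 0.98 and 0.37 (edgeR adjusted p = 0.0113 and 0.0159). The groups of Trmt44 overlapped, and Capns2 rests on 27 counts in the euthyroid and 63 in the hypothyroid group. Some nearest tested genes lie far off: Capns2 by 263662, Adra2c by 220454 and P4ha2 by 172136 bases. Arl4a beside Scin was 0.33 higher (edgeR adjusted p = 0.0236), a call lost without euthyroid replicate 1, 2 or 5 or hypothyroid replicate 2, at adjusted p of up to 0.0632. Fnip1 beside Acsl6 had -0.12 (edgeR adjusted p = 0.0607) and passed without euthyroid replicate 3 or 5 or hypothyroid replicate 3. With library sizes alone Fnip1 had 0.15.

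Timm13 and Zmat5 overlap Tmprss9 and Cabp7 on the opposite strand. Timm13, a mitochondrial import protein, had 22.8 ± 0.846 CPM in euthyroid and 20.5 ± 1.23 CPM in hypothyroid libraries (SD, n = 5 in each group; edgeR log2 fold change -0.15, adjusted p = 0.0401). That call was lost without euthyroid replicate 1, 4 or 5 or hypothyroid replicate 1, 2, 3 or 5, and with the replicate block (0.0615), and its sign turned with library sizes alone (0.12). Zmat5, a splicing factor, fell from 13.7 ± 1.03 to 9.52 ± 1.29 CPM (SD, n = 5 in each group; edgeR log2 fold change -0.52, adjusted p = 0.00022). Both overlapping genes differed far less than Tmprss9 or Cabp7.

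**Figure D4:**
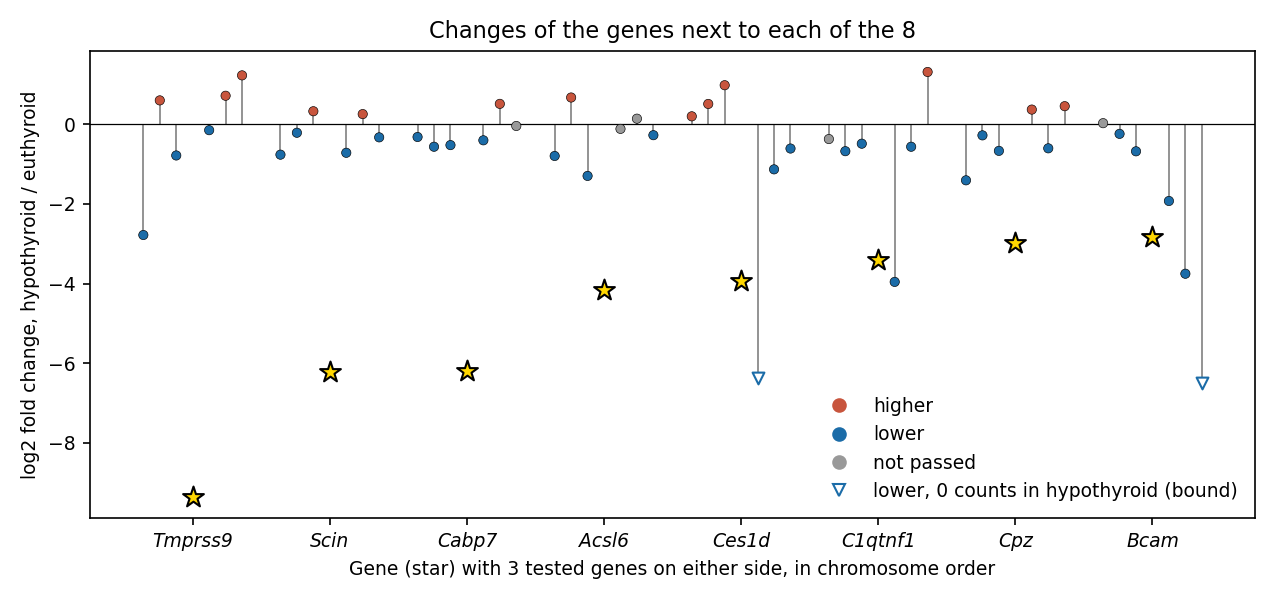
Log2 fold change (hypothyroid over euthyroid) of each of the 8 genes (star) and of 3 tested genes on either side in chromosome order, coloured by the edgeR call. Open triangles mark genes with 0 hypothyroid counts at the bound set by 3 counts, and most neighbours lie nearer to 0 than the star between them.

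Markers of the cell types that the dissection could hold moved with the group as well, and their part in the levels of the 8 genes was not tested. Of 10 root and outer sulcus markers 2 rose and 7 fell. Their summed level was 8050 to 8800 CPM in euthyroid and 3350 to 4060 CPM in hypothyroid libraries. Most of that sum was Epyc (3978 ± 220 and 1735 ± 235 CPM) and Sparcl1 (3512 ± 91.0 and 1408 ± 80.9 CPM, SD, n = 5 each). Of 11 fibrocyte markers of the spiral ligament 2 rose and 8 fell, from 25700 to 29900 CPM down to 14300 to 16900 CPM. All 9 markers of osteoblasts and osteocytes fell, from 1130 to 1740 CPM down to 80.4 to 126 CPM, with Bglap2 at 0 in hypothyroid libraries, and with library sizes alone 8 passed. All 5 osteoclast markers tested fell, from 163 to 238 CPM down to 84 to 108 CPM, of which 4 passed with library sizes alone. Of 7 chondrocyte markers tested 2 rose and 4 fell, from 33100 to 38300 CPM down to 13500 to 14400 CPM. Most of that sum was Col2a1, at 32370 ± 2003 and 12480 ± 392 CPM (SD, n = 5 each), while Comp and Matn1 rose. Of 8 hair cell markers 1 rose and 6 fell, from 48.1 to 104 CPM down to 35.4 to 45.5 CPM. Slc26a5 was at 0 in hypothyroid libraries.

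The remaining lists were higher, lower or mixed in the hypothyroid group, or did not pass. All 8 macrophage markers rose, from 290 to 321 CPM up to 432 to 552 CPM, and 6 of 7 melanocyte markers rose and 1 fell, from 485 to 685 CPM up to 907 to 1710 CPM. Of 3 neuronal markers tested 2 rose and 1 fell, and of 2 skeletal muscle markers tested 1 rose, at summed levels of 23.7 to 34.2 and 44.6 to 61.2 CPM for neurons and 1.08 to 2.03 and 2.53 to 3.71 CPM for muscle. Of 6 endothelial markers 5 fell, from 635 to 789 CPM down to 519 to 599 CPM, and 3 did with library sizes alone. Of 5 Schwann cell markers 2 rose and 1 fell (147 to 224 and 169 to 223 CPM). None of the 6 markers of stria marginal cells (327 to 514 and 404 to 821 CPM) or the 5 of erythroid cells (437 to 798 and 492 to 710 CPM) passed edgeR's test, and with library sizes alone 3 of the 6 and 0 of the 5 did. The largest marker by CPM in the lists that were lower was Epyc for root cells, Car3 for fibrocytes, Ibsp for osteoblasts, Ctsk for osteoclasts, Col2a1 for chondrocytes, Ocm for hair cells and Emcn for endothelium. Their log2 fold changes were -1.20, -0.64, -5.96, -1.07, -1.37, -9.41 and -0.47 (edgeR adjusted p = 8.8e-09, 3.74e-07, 2.2e-07, 4.27e-08, 1.74e-11, 7.59e-07 and 1.78e-05).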

How the data were processed

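RNA of 5 euthyroid and 5 hypothyroid libraries was read from 1 table, in which 0 columns of per-sample values lacked a sample. Per the file headers, the authors deposited an expected count (estimated count) for each gene and library, FPKM and TPM values, and a scaled signal that was not used here. The genome build GRCm38.p6 and the tools RSEM 1.2.12, HISAT2 2.0.4 and Bowtie2 2.2.5 are named per the submitters' processing notes, with role and order not given. Strandedness was not given in the sources used here. The 8 genes and all lists were chosen with earlier results of these data known.

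Expected counts were rounded to whole numbers and filtered with filterByExpr (minimum count 10), scaled with TMM and tested over all genes with edgeR 4.0.16 (quasi-likelihood, robust, two-sided, Benjamini-Hochberg adjusted p under 0.05) in R 4.3.3. SE is the absolute log2 fold change over the square root of F. TMM factors were 0.894 to 0.936 in euthyroid and 1.07 to 1.12 in hypothyroid libraries. CPM use the TMM-scaled totals, and means ± SD are over 5 libraries. Family shares and ranks use the deposited TPM. Alternatives used DESeq2 1.42.0, limma 3.58.1 on log2 TPM or FPKM (pseudocount 0.5 or 0.1), other scalings and filters, each library left out, and a replicate block. The scripts were tested on simulated data. Figures were drawn with matplotlib 3.10.9 in Python 3.11.15.

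The lists hold relatives and partners of the 8 genes and markers of 15 cell types. Named genes were, per list, the called gene with the largest change in each direction at a mean of at least 1 CPM, plus Lama5, Pi4kb, Plau, the most abundant relative where it exceeded its gene, the nearest tested neighbours, the 3 most alike genes at a mean of at least 5 CPM and the top marker of each list; 1 gene that the rule names is not reported here. Windows of 3 neighbours on each side were added after seeing the data. Exons, overlaps and shared 50-base stretches come from GENCODE M21, and start regions and gene order from RefSeq GRCm38.p6, to which 18669 of 18725 gene IDs matched.

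Within-group pairs of libraries differed by more than sampling noise (mean chi-square 5.39 to 15.7 over 20 pairs), so none was treated as a duplicate. The labels do not say that libraries are separate animals, so p-values measure only the spread of these libraries, which may be technical. The litter was not given, and a litter effect cannot be told apart from the treatment.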

Additional observations from a re-analysis of the deposited data

Results flagged for a closer look

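In each group of 5 libraries, the highest and lowest library was compared with its nearest neighbour for 92 named genes, 184 groups in all. In 8 of these groups the gap took more than 0.71 of the group's whole range, where chance gives about 1 in 20. Of the 8 genes described here this holds for Scin alone. Scin had 134 CPM in euthyroid replicate 4 and 101 to 106 CPM in the other 4 (gap 0.842 of the range).

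Nf2, the gene beside Cabp7, had 151 CPM in euthyroid replicate 2 against 171 to 174 in the others (0.886), and 133 CPM in hypothyroid replicate 3 against 125 to 126 (0.822). Elovl2 had 5.82 CPM in hypothyroid replicate 4 against 7.89 to 8.58 (0.751). Bglap had 137 CPM in euthyroid replicate 5 against 65.2 to 82.1 (0.765), and 1.64 CPM in hypothyroid replicate 3 against 0 to 0.283 (0.828). Klhl33 had 2.39 CPM in hypothyroid replicate 1 against 2.70 to 2.82 (0.732). Sox10, a Schwann cell and melanocyte marker, had 130 CPM in hypothyroid replicate 2 against 101 to 109 (0.739). The gap of Scin lies within its own group and is small beside the distance to the hypothyroid libraries, of which the highest had 1.57 CPM.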

How the results depend on the processing

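The log2 fold changes of the 8 genes stayed negative under every alternative run: -9.57 to -7.02 for Tmprss9, -6.26 to -5.04 for Scin, -6.34 to -4.81 for Cabp7, -4.23 to -3.34 for Acsl6, -3.97 to -3.61 for Ces1d, -3.45 to -3.08 for C1qtnf1, -3.02 to -2.69 for Cpz and -2.87 to -2.56 for Bcam. The 8 genes were picked for large decreases in this same contrast, so their sign is not a test. The count of all genes that rose was 8650 with library sizes alone against 5603. The count that fell was 2928 with library sizes alone, 3241 and 3238 with limma on log2 TPM plus 0.5 and 0.1, and 2826 with limma on log2 FPKM, against 5064. The share of called genes that rose was 52.5%, 74.7% with library sizes alone, 71.3% with TPM, 74.2% with FPKM and 62.5% with upper quartile factors. With 3 neighbours on each side, 13 rose and 30 fell. Without 1 library at a time, 5316 to 5539 genes rose and 4925 to 5150 fell. The sign turned in 5 named genes. With library sizes alone, TPM plus 0.5, TPM plus 0.1 and FPKM, Fnip1 had 0.15, 0.10, 0.11 and 0.14, Timm13 had 0.12, 0.075, 0.076 and 0.11, and Hbb-bs had 0.10, 0.067, 0.067 and 0.11. Lipe had 0.026 with library sizes alone and 0.012 with FPKM. Sox10 had -0.017 with RLE factors and with DESeq2, -0.051, -0.0041 and -0.054 without euthyroid replicate 3, euthyroid replicate 5 and hypothyroid replicate 2, and up to 0.048 with the other libraries left out in turn. The cause was not tested. Replicate numbers did not pair the libraries: same-numbered deviations correlated at 0.146, -0.0843, 0.00846, 0.04 and 0.0836, and only replicate 1 correlated best with its own number from both sides. With the replicate block 5453 genes rose and 4939 fell, and beside Appl1 and Timm13 no call of a named gene changed. Depth limits the hypothyroid values of Tmprss9, Cabp7, Scin and Acsl6, which rest on 51, 115, 155 and 249 counts.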
